A study of Mus musculus with 14 samples.

Results

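The genes described here supply peptides to MHC class I molecules or make the proteasome form that is tuned for this purpose. They are B2m, Tap1, Tap2, Tapbp, Psmb8, Psmb9, Psmb10, Psme1, Psme2 and Nlrc5, chosen by their function, and they were found through the transcript accession of each array probe. All 10 genes were on the array, with 14 of its 41174 probes, and all 14 probes passed the filter on dim signals. Of all named genes on the array, 15536 had a probe that passed.

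MHC class I molecules display short peptides from inside the cell to CD8 T cells. The proteasome cuts the peptides, the TAP transporter carries them into the endoplasmic reticulum, and a loading complex places them on a heavy chain paired with beta-2 microglobulin. Inflammatory cytokines, above all interferon-gamma, make cells exchange the catalytic proteasome subunits for immunosubunits, and the colonic epithelium and the leukocytes beneath it can both do so.

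The arrays measured RNA of whole colon from female C57BL/6 mice aged 4 to 6 months. In Flox mice, the controls, both copies of Nr3c1, the glucocorticoid receptor gene, are flanked by loxP sites. GR iKO mice have these alleles together with a Villin-cre transgene, which acts in intestinal epithelium without induction and leaves the receptor in immune and stromal cells. Each genotype was given regular water (Flox_ctrl, n = 4, and GR iKO_ctrl, n = 4) or 2.5% dextran sulfate sodium (DSS), a detergent-like polymer that injures the colonic epithelium, for 7 days (Flox_DSS, n = 3, and GR iKO_DSS, n = 3). The comparisons ask how these genes respond to DSS, and whether the response differs when the epithelium lacks the receptor.

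As a check of the labels, Nr3c1 in GR iKO colon was compared with its Flox level over 4 probes. It stood at 47.6 to 57.3% on water and at 55.2 to 75.7% on DSS. The position of these probes relative to the deleted part of the gene was not determined. The genotypes did not overlap for 3 of the 4 probes on each treatment. Of all tested probes 2.26% did not overlap on water and 22.7% on DSS, so the count on DSS says less. On each array 62.6 to 71.3% of the probes were well above background. Arrays of DSS colon varied more than arrays of water colon, and they had stronger spike-in signal: the mean log2 signal of the spike-in transcripts, added during labelling, was 12.25 to 12.96 on water, 13.74 to 14.04 in Flox_DSS and 12.78 to 13.40 in GR iKO_DSS. Every level below is given relative to the 75th percentile of its own array, and a change says how a gene moved relative to the other genes. In whole tissue, fewer cells of a type and less RNA per cell cannot be told apart.

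Reference promoters are shown because the 10 genes moved together. RefSeq promoters of GRCm38.p6, from 250 bases before to 50 bases after the annotated start, were found for 8 of the 10 genes, with 9 windows in all, because Psme2 has a pair of starts. Tap1 and Psmb9 lie head to head, with 226 bases from one start to the other. The bases between these starts, and the 250 bases before the B2m and Psmb8 starts, are printed 5′ to 3′ on the plus strand, with the matched motifs in capitals.
B2m, chr2:122147437-122147686: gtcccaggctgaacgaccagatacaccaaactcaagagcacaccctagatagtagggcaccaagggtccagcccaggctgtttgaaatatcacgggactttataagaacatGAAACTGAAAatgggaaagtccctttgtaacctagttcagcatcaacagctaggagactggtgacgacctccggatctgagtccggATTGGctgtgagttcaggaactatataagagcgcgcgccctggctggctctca
Tap1 and Psmb9, chr17:34187331-34187555: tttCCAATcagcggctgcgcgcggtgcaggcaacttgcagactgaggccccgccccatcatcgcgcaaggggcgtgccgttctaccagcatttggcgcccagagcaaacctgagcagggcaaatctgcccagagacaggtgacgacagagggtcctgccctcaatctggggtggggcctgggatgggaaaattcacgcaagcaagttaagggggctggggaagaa
Psmb8, chr17:34197945-34198194: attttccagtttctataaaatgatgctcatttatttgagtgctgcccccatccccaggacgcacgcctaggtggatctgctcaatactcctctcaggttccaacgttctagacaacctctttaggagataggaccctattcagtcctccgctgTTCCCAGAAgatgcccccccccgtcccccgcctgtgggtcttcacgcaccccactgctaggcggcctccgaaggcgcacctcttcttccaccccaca

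Each motif was searched on both strands. The core of the interferon-stimulated response element, a pair of GAAA runs set 2 bases apart, was found in the B2m window and, after the start, in the Psme1 window, and in 3.44% of all 32851 promoters of the same length. TTCNNNGAA, the gamma-activated sequence, was found in the Psmb8 window and in 8.3% of all promoters. CCAAT, the box bound by the NF-Y factors, was found in the windows of B2m, Tapbp, Psmb9 and Tap1 and in 37.4% of all promoters, and the matches of Tap1 and Psmb9 are the same bases. TGACGT (7.51% of all promoters), GGGNNTTCC (5.82%) and ACANNNTGT, a form of the glucocorticoid response element (6.85%), had no match in the 9 windows. Only these exact spellings were searched, so other forms of the same elements, also in the printed sequences, were not counted. A match is a run of letters and not a measured binding site.

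DSS against water was tested within each genotype. All 10 genes rose with DSS in both genotypes relative to the other genes on the array (limma, adjusted p under 0.05), with a median log2 change of 1.05 in Flox and 1.37 in GR iKO, but when arrays were scaled to the spike-in transcripts 9 of the 10 changes in Flox and 4 in GR iKO turned negative, because that scaling moved the median of all probes to -2.41 and -0.95. Relative to that median the genes stood 1.14 higher in Flox and 1.40 higher in GR iKO under the spike-in scaling, against 1.14 and 1.39 under the 75th-percentile scaling. This likeness was fixed in advance, since each scaling moves every gene of an array by the same amount, and it is no separate evidence. A call was common in this experiment: 47.2% of all 29523 tested probes were called in Flox, 21.8% as higher and 25.4% as lower, and 38.9% in GR iKO, 19.1% as higher and 19.8% as lower. The median change of all probes was -0.09 in Flox and -0.02 in GR iKO.

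**Figure D1:**
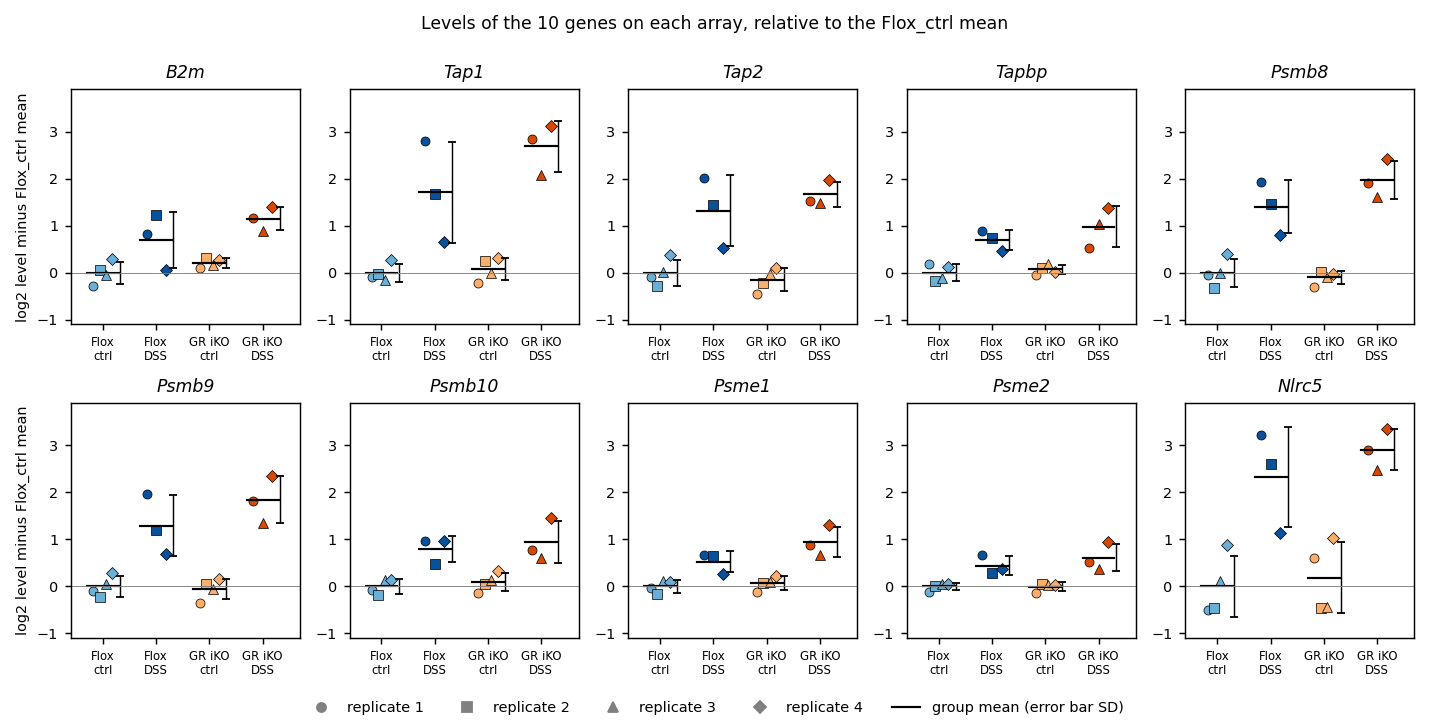
Log2 level of each gene on each array minus the gene's Flox_ctrl mean (vertical axis), in the 4 groups (horizontal axis), on the 75th-percentile scale. Symbols are arrays by replicate number, lines are group means and error bars are SD. Nlrc5 was not above background on Flox_DSS replicate 4 or on any Flox_ctrl array. All GR iKO_DSS arrays lie above the GR iKO_ctrl arrays, and all Flox_DSS arrays lie above the Flox_ctrl arrays except for B2m, an order that under spike-in scaling turned for 9 of the 10 mean changes in Flox and 4 in GR iKO.

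The DSS and water arrays did not overlap for 9 of the 10 genes in Flox, where this held for 57.3% of all tested probes, and for 10 of 10 in GR iKO, where it held for 46.1%. The exception was B2m in Flox. The 9 genes include Nlrc5, which was not above background on Flox_DSS replicate 4 or on any Flox_ctrl array. Before scaling, its signal was 9.592 on Flox_DSS replicate 4 and 22.16 on Flox_ctrl replicate 4. Arrays of the same slide gave the same sign: each gene was higher on DSS in 3 of 3 slides in GR iKO and in 3 of 3 slides in Flox, except B2m, which was higher in 2 of 3 and differed by -0.24 on the remaining slide. Without Flox_DSS replicate 1 only 3 of the 10 genes were called in Flox (median 0.83), and without Flox_DSS replicate 2 only 6 were (median 1.11), although all 10 changes stayed positive in each case.

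The peptide transporter is built of Tap1 and Tap2. Tap1 lay at -1.28, -1.21, -1.34 and -0.91 in Flox_ctrl replicates 1 to 4 and at 1.62, 0.49 and -0.53 in Flox_DSS replicates 1, 2 and 4 (log2 level relative to the array's 75th percentile). It lay at -1.40, -0.94, -1.19 and -0.88 in GR iKO_ctrl replicates 1 to 4 and at 1.66, 0.89 and 1.94 in GR iKO_DSS replicates 1, 3 and 4. The water arrays of both genotypes fell within a narrow band, and the Flox_DSS arrays spread from just above that band to the level of GR iKO_DSS. The log2 change with DSS was 1.71 ± 0.37 (SE; adjusted p = 0.0024) in Flox and 2.60 ± 0.37 (adjusted p = 0.000244) in GR iKO, or 3.28-fold and 6.06-fold.

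For Tap2 the Flox_ctrl arrays gave 0.18, -0.03, 0.28 and 0.64 and the Flox_DSS arrays 2.27, 1.70 and 0.79, in the same order of replicates. The GR iKO_ctrl arrays gave -0.20, 0.06, 0.25 and 0.37 and the GR iKO_DSS arrays 1.80, 1.76 and 2.24. As for Tap1, Flox_DSS replicate 4 was closest to the water arrays, by 0.15 from the highest Flox_ctrl array. The change was 1.32 ± 0.31 (adjusted p = 0.00413) in Flox and 1.81 ± 0.31 (adjusted p = 0.00081) in GR iKO.

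Tapbp encodes tapasin, which holds the empty heavy chain at the transporter, and B2m encodes the light chain of every class I molecule. Their changes were smaller: 0.69 ± 0.19 (adjusted p = 0.0111) in Flox and 0.91 ± 0.19 (adjusted p = 0.00313) in GR iKO for Tapbp, and 0.70 ± 0.24 (adjusted p = 0.0302) in Flox and 0.93 ± 0.24 (adjusted p = 0.00883) in GR iKO for B2m. B2m lay at 4.00, 4.33, 4.24 and 4.57 in Flox_ctrl and at 5.11, 5.50 and 4.33 in Flox_DSS, so that Flox_DSS replicate 4 stood inside the range of the Flox_ctrl arrays. In GR iKO the B2m arrays on water lay between 4.37 and 4.60 and those on DSS at 5.45, 5.18 and 5.67. A second B2m probe gave 0.64 in Flox and 1.13 in GR iKO and was called in each. The probes of Tapbp disagreed: a second, dimmer probe gave -0.17 ± 0.20 in Flox and 0.37 ± 0.20 in GR iKO, and neither was called (adjusted p = 0.523 and 0.161), so the rise of Tapbp rests on 1 of its probes.

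The immunosubunits Psmb8, Psmb9 and Psmb10 replace Psmb5, Psmb6 and Psmb7 in the catalytic chamber. Psmb8 lay at 2.40, 2.13, 2.44 and 2.86 in Flox_ctrl and at 4.40, 3.93 and 3.26 in Flox_DSS. It lay at 2.16, 2.48, 2.37 and 2.44 in GR iKO_ctrl and at 4.36, 4.06 and 4.87 in GR iKO_DSS. Psmb8 had the lowest adjusted p of the 10 genes in either genotype: the change was 1.40 ± 0.28 (adjusted p = 0.00145) in Flox and 2.07 ± 0.28 (adjusted p = 0.000172) in GR iKO. A second Psmb8 probe gave 1.24 and 2.16.

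Psmb9, the neighbour of Tap1 in the genome, lay at 2.53, 2.40, 2.68 and 2.92 in Flox_ctrl and at 4.61, 3.83 and 3.33 in Flox_DSS. The GR iKO_ctrl arrays stood at 2.29, 2.68, 2.57 and 2.78 and the GR iKO_DSS arrays at 4.44, 3.98 and 4.98. The replicates kept the order seen for Tap1 in each DSS group. Psmb9 changed by 1.29 ± 0.29 (adjusted p = 0.00314) in Flox and by 1.89 ± 0.29 (adjusted p = 0.000402) in GR iKO.

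Psmb10 changed by about the same amount in each genotype, 0.80 ± 0.22 (adjusted p = 0.00921) in Flox and 0.85 ± 0.22 (adjusted p = 0.00838) in GR iKO. Its Flox_DSS arrays stood at 6.67, 6.18 and 6.66 against 5.51 to 5.83 in Flox_ctrl, so that replicate 4, the lowest of the Flox_DSS arrays for 8 of the 10 genes, was close to the highest here. The GR iKO_DSS arrays stood at 6.49, 6.30 and 7.15 against 5.56 to 6.02 on water.

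The constitutive counterparts did not pass the test in either genotype. Psmb5 changed by 0.22 ± 0.17 in Flox and 0.05 ± 0.17 in GR iKO, Psmb6 by 0.18 ± 0.15 and 0.04 ± 0.15, and Psmb7 by -0.00 ± 0.16 and -0.06 ± 0.16, with adjusted p-values from 0.3 to 0.995. The log2 ratio of an immunosubunit to its counterpart on the same array does not depend on how arrays are scaled, so it was compared as well, relative to the mean of Flox_ctrl. The 3 ratios were compared in 4 ways, 12 exact permutation tests in all (two-sided, p-values adjusted over the 12 tests).

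Psmb8 over Psmb5 was -0.07, -0.46, -0.07 and 0.60 in Flox_ctrl and 1.71, 1.36 and 0.47 in Flox_DSS, and these overlap, since Flox_DSS replicate 4 lay below Flox_ctrl replicate 4. It was -0.46, -0.07, -0.07 and -0.10 in GR iKO_ctrl and 1.36, 1.89 and 2.27 in GR iKO_DSS, which do not overlap. The difference with DSS was 1.18 in Flox (exact permutation p = 0.0857, adjusted p = 0.171) and 2.02 in GR iKO (exact permutation p = 0.0286, adjusted p = 0.0858). Psmb9 over Psmb6 differed by 1.11 in Flox, with overlapping arrays and the same exact p of 0.0857, and by 1.86 in GR iKO, without overlap and with the exact p of 0.0286. Psmb10 over Psmb7 did not overlap in either genotype and differed by 0.80 and 0.91 (exact permutation p = 0.0286 in each). Between the genotypes the 3 ratios, in this order, differed by 0.66, 0.86 and 0.17 on DSS (exact permutation p = 0.3, 0.2 and 0.6). On water they differed by -0.18, 0.11 and 0.06 (exact permutation p = 0.314, 0.657 and 0.714). With 4 arrays against 3 or 4 the smallest p these tests can give is 0.0286. With 3 against 3 it is 0.1, so the genotype tests on DSS could not pass. The tests of DSS against water were limited as well. Even with the smallest p in all of them, they would stay above 0.05 after adjustment, unless a genotype test on water also reached it. None of the 12 passed 0.05 after adjustment, and this says little about whether the ratios shifted.

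**Figure D2:**
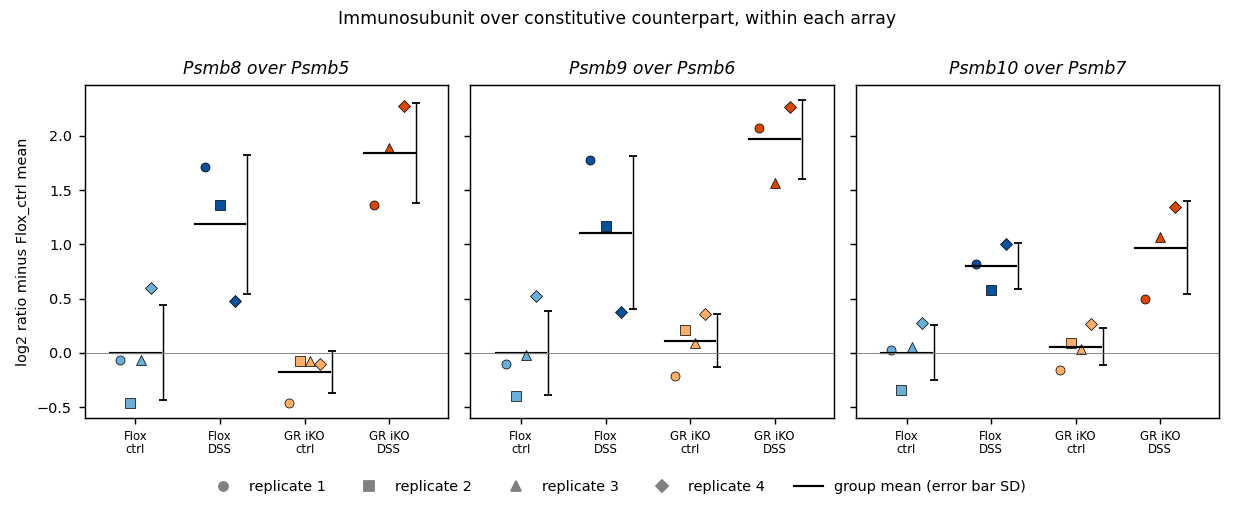
Log2 ratio of an immunosubunit to its constitutive counterpart on each array minus the mean of Flox_ctrl (vertical axis), by group (horizontal axis). Symbols are arrays, lines group means and error bars SD. In GR iKO every DSS array lies above every water array for the 3 ratios, and in Flox this holds for Psmb10 over Psmb7.

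Psme1 and Psme2 encode the proteasome activator that opens the gate of the catalytic chamber. Psme1 stood at 5.25, 5.23 and 4.86 in Flox_DSS against 4.42 to 4.69 in Flox_ctrl, and at 5.46, 5.26 and 5.89 in GR iKO_DSS against 4.46 to 4.81 in GR iKO_ctrl. Its change was 0.53 ± 0.17 (adjusted p = 0.0258) in Flox and 0.88 ± 0.17 (adjusted p = 0.00199) in GR iKO. Psme2 had the smallest change of the 10, 0.44 ± 0.14 (adjusted p = 0.0233) and 0.62 ± 0.14 (adjusted p = 0.00498). A second Psme2 probe gave 0.26 (adjusted p = 0.211) in Flox, which was not called, and 0.46 (adjusted p = 0.0436) in GR iKO. Psme3, the activator of the nucleus and no member of the interferon-induced pair, gave -0.32 ± 0.23 in Flox and 0.24 ± 0.23 in GR iKO and was not called (adjusted p = 0.286 and 0.44).

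Nlrc5 encodes the transactivator of class I genes and had the dimmest probe. It was not well above background on any of the 4 Flox_ctrl arrays, and it was on 2 of 3 Flox_DSS, 2 of 4 GR iKO_ctrl and 3 of 3 GR iKO_DSS arrays. It lay at -2.71, -3.31 and -4.77 in Flox_DSS. Replicate 4, the lowest of these, was not above background and lay 0.27 above the highest Flox_ctrl array. Flox_ctrl levels below the lowest level that counts as above background on their array were raised to it. The mean of the 3 Flox_DSS arrays was then 4.61-fold that of Flox_ctrl. This value rests on replicates 1 and 2 and is no lower bound. The log2 change was called (limma, adjusted p = 0.0114). It was 1.88 without Flox_DSS replicate 1, as low as 1.16 under the alternatives other than spike-in scaling, and 0.000452 under spike-in scaling. Set to the 4.61-fold value, Nlrc5 leaves the median change of the 10 genes in Flox at 1.05. In GR iKO it lay between -6.37 and -4.89 on water and at -3.01, -3.43 and -2.58 on DSS. It was called in GR iKO as well (adjusted p = 0.00602), where the size is uncertain because only 2 of 4 water arrays measured the gene. Of its 7 arrays above background 5 were DSS arrays, so that Nlrc5 passed the filter on dim signals mainly through the groups in which it was high.

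Leaving Nlrc5 aside, whose size is not defined, the genes were sorted by the size of their change into a pair of classes. This was done after the changes were seen and the split was not tested. The same genes fell in each class in both genotypes. Tap1, Tap2, Psmb8 and Psmb9 changed by 1.29 to 1.71 in Flox and by 1.81 to 2.60 in GR iKO, while B2m, Tapbp, Psmb10, Psme1 and Psme2 changed by 0.44 to 0.80 and by 0.62 to 0.93. On the brightest probe of each gene, the median Flox_ctrl intensity was 381.5 to 5273 for the first 4 genes and 15940 to 58000 for the others. Of the second probes, that of Tapbp departed from this order, with an intensity of 685.2 and the smallest change. Those of Psmb8 (4558), B2m (7142, between the ranges) and Psme2 (26330) kept it. No probe was saturated, and the part of probe brightness in the size of the changes was not tested.

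**Figure D3:**
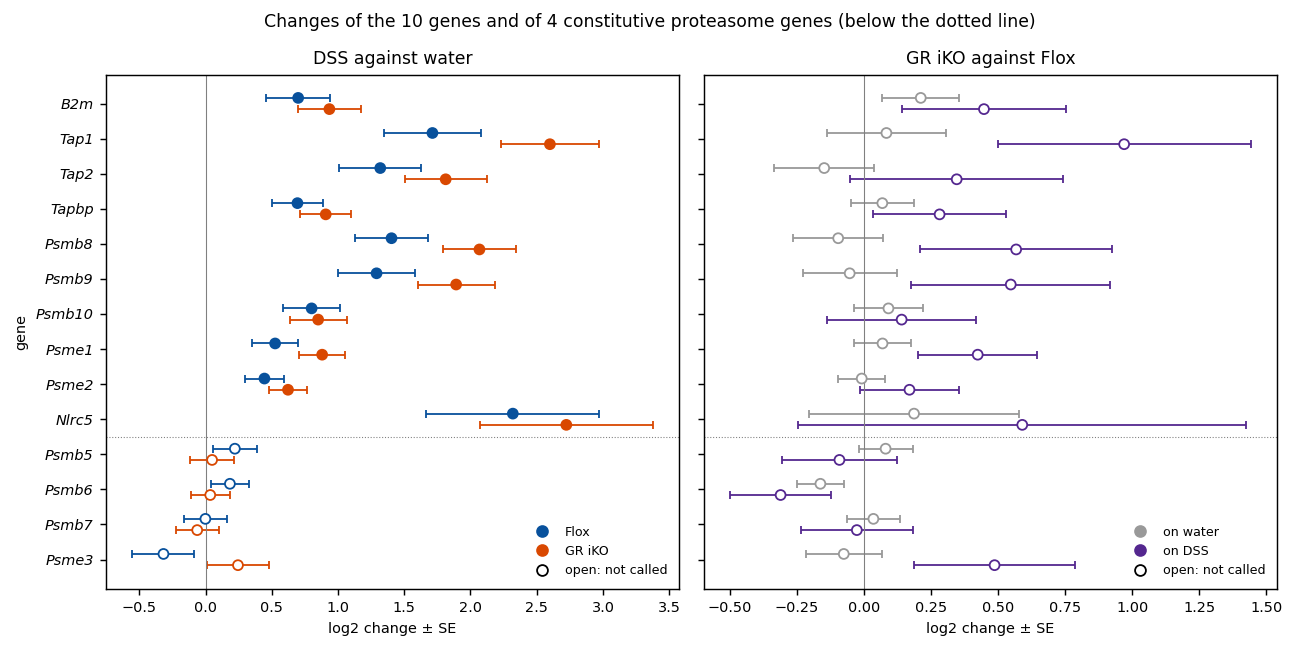
Log2 change ± SE (horizontal axis) of the 10 genes and, below the dotted line, of Psmb5, Psmb6, Psmb7 and Psme3, for DSS against water in each genotype (left) and for GR iKO against Flox on each treatment (right). Filled points were called at adjusted p under 0.05. The 10 genes are filled on the left, where spike-in scaling would turn 9 changes in Flox and 4 in GR iKO negative, and none is filled on the right.

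Genotype was compared on each treatment. On water the 10 genes did not pass the test: the log2 differences of GR iKO from Flox ran from -0.15 (Tap2) to 0.21 (B2m), with a median of 0.07 and 6 of 10 above 0, and 0.0237% of all tested probes were called. The groups overlapped for all 10 genes on water, where 2.26% of all probes did not. On DSS the 10 differences were above 0, from 0.14 (Psmb10) to 0.97 (Tap1), with a median of 0.44 against 0.03 for all probes, but none was called and none had an unadjusted p under 0.05 on the probes used (lowest adjusted p = 0.311, for Tap1). The second probes of Psmb8 (0.77 ± 0.34) and B2m (0.58 ± 0.27) had an unadjusted p of 0.0438 and 0.0493 in limma and were not called either (adjusted p = 0.265 and 0.28). Here 0.0203% of all probes were called, against 13.2% with equal weights for all arrays, which called none of the 10 genes either.

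Tap1 differed by 0.97 ± 0.47 between the genotypes on DSS, Tap2 by 0.35 ± 0.40, Psmb8 by 0.57 ± 0.36, Psmb9 by 0.55 ± 0.37, B2m by 0.45 ± 0.31, Psme1 by 0.42 ± 0.22 and Nlrc5 by 0.59 ± 0.83 (SE, 3 arrays against 3). Psme1 was the only gene of the 10 whose GR iKO_DSS arrays all stood above the Flox_DSS arrays, while 22.7% of all tested probes had groups that did not overlap. The interaction, which asks whether the DSS change itself differed between the genotypes, was above 0 for the 10 genes, from 0.05 (Psmb10) to 0.89 (Tap1), with none called (lowest adjusted p = 0.456) and with 0% of all probes called (limma; 4389 had an unadjusted p under 0.05). Under spike-in scaling 6 of the 10 interactions were called, with a median of 1.77 against 1.42 for all probes, and 28.8% of all probes were called. The DSS comparisons of the genotypes and the genotype comparison on DSS share their arrays, so the common sign is no separate evidence.

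Single arrays carried much of this difference. Averaged over the 10 genes and set to 0 at the Flox_ctrl mean, Flox_DSS replicates 1, 2 and 4 stood at 1.59, 1.18 and 0.59 and GR iKO_DSS replicates 1, 3 and 4 at 1.49, 1.26 and 1.97, while the 8 water arrays stood between -0.18 and 0.29. The highest Flox_DSS array was thus above the lower 2 of the GR iKO_DSS arrays. Flox_DSS replicate 1 was the highest of its group for 9 of the 10 genes and replicate 4 the lowest for 8, and GR iKO_DSS replicate 4 was the highest of its group for 10 and replicate 3 the lowest for 9. With 1 DSS array left out the median difference on DSS ran from 0.19, without Flox_DSS replicate 4, and 0.27, without GR iKO_DSS replicate 4, to 0.57, without GR iKO_DSS replicate 3, and 0.60, without Flox_DSS replicate 1, with 9 or 10 of 10 above 0 and none called. Only 2 slides held DSS arrays of each genotype, and they disagreed: Tap1 differed by -0.73 on one and by 2.47 on the other, and 3 of the 10 genes (B2m, Tapbp and Psme1) were higher in GR iKO on each.

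Other genes of the pathway were taken from lists by role. Their counts stand against the shares of all tested probes called, 21.8% higher and 25.4% lower in Flox and 19.1% and 19.8% in GR iKO. Of the class I heavy chains, 12 of 19 had a probe. In Flox 3 were called, all higher (H2-Q5 by 1.69, H2-T3 by 2.76 and H2-M3 by 0.46), and in GR iKO 9 were, all higher, among them H2-Q5 by 2.90 and H2-Q7 by 0.82 (adjusted p = 0.00178). H2-K1, a classical heavy chain of this strain, gave 0.07 (adjusted p = 0.721) in Flox and 0.47 (adjusted p = 0.0309) in GR iKO. H2-D1, the other classical chain, had no matched probe. These genes are near-identical copies in part and can share a probe's signal, so single heavy chains are uncertain. The list's median was 0.27 in Flox and 0.62 in GR iKO.

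Among 9 measured partners of peptide trimming and loading, 1 was called higher and 1 lower in Flox (Blmh by 0.46 and Tpp2, which fell by 0.36) and 3 higher in GR iKO, namely the tapasin relative Tapbpl by 0.85 (adjusted p = 0.0274) and the aminopeptidases Npepps by 0.74 and Lnpep by 0.65. Erap1, which trims peptides in the endoplasmic reticulum, gave -0.42 (adjusted p = 0.0741) and -0.10 (adjusted p = 0.69), and Calr, the chaperone calreticulin, gave 0.07 and 0.20, and neither passed the test.

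Few of the other proteasome genes were called. Of 11 other subunits of the catalytic core none was called higher, while 3 were lower in Flox (Psmb2, which fell by 0.58, Psma1 and Psmb1) and 1 in GR iKO (Psmb1, which fell by 0.48). Of 18 subunits of the regulatory cap, 2 were higher and 1 lower in Flox and 3 higher and 1 lower in GR iKO. Psmd2 and Psmd3 rose in each genotype (Psmd2 by 0.50 and 0.73, Psmd3 by 0.40 and 0.43), Psmd11 rose by 0.42 in GR iKO, and Psmd8 fell by 0.46 in Flox and by 0.47 in GR iKO. Of 8 other activators and assembly factors, Pomp, the maturation protein that assembles new proteasomes, rose by 0.62 in each genotype (adjusted p = 0.00748 and 0.00961), whereas the assembly chaperone Psmg1 fell by 0.64 in Flox and by 0.76 in GR iKO, and Psmg2 fell by 0.80 in GR iKO. These directions are relative to the other genes on the array: under spike-in scaling 3 of the 89 pathway genes outside the set had a positive change in Flox and 10 in GR iKO.

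**Figure D4:**
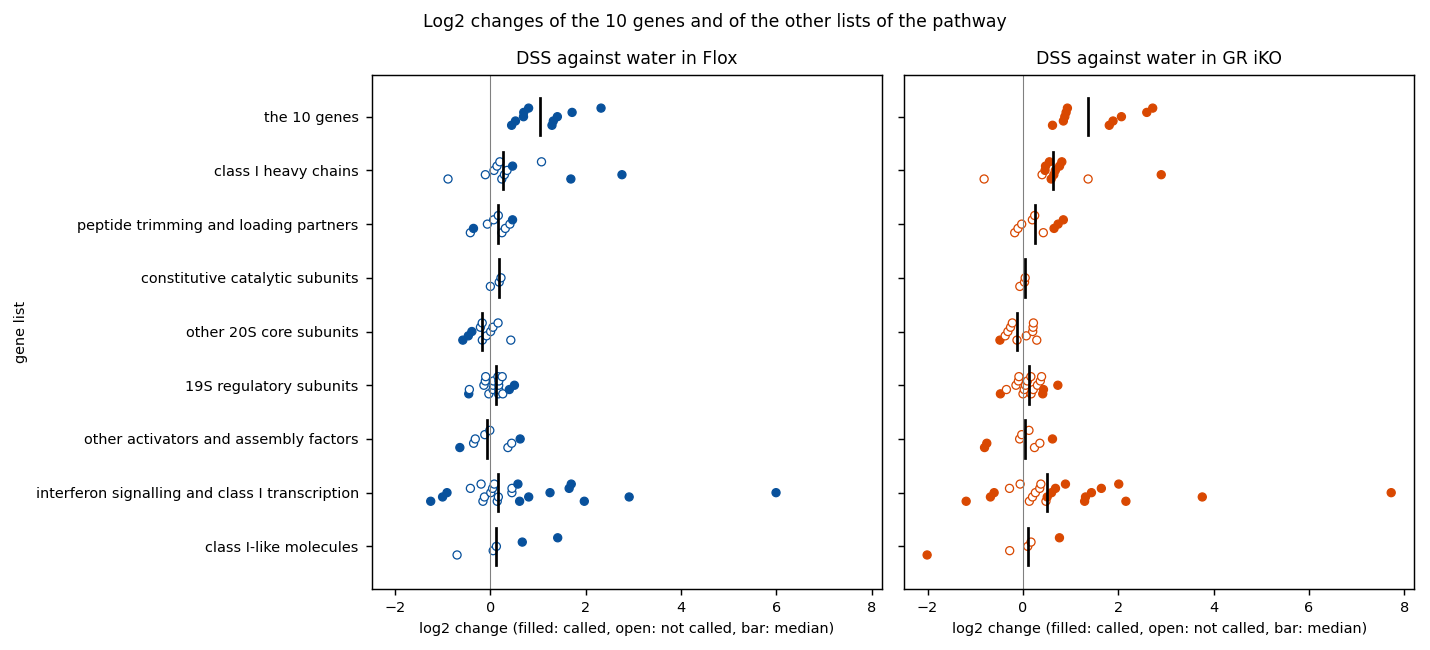
Log2 change with DSS (horizontal axis) of every tested gene of each list (vertical axis) in Flox and GR iKO. Filled points were called at adjusted p under 0.05, open points were not, and bars are medians. The median of the 10 genes is 1.05 in Flox and 1.37 in GR iKO and that of the other core subunits is -0.17 and -0.12, on the 75th-percentile scale, and 9 of the 10 changes in Flox and 4 in GR iKO were negative under spike-in scaling.

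Of 24 genes of interferon signalling and class I transcription 23 were tested, with 9 called higher and 3 lower in Flox and 12 higher and 3 lower in GR iKO. Of all tested probes 21.8% were higher and 25.4% lower in Flox, and 19.1% and 19.8% in GR iKO. The list's median change was 0.17 in Flox and 0.51 in GR iKO. Tyk2, also on this list, had a lower mean level on DSS: -0.32 against 0.59 on water in Flox and -0.07 against 0.61 in GR iKO. Ifng, which encodes interferon-gamma, was not well above background on any Flox_ctrl array and stood at 1.29, -1.12 and -2.24 in Flox_DSS. With Flox_ctrl levels raised to the lowest level that counts as above background, the Flox_DSS mean was 40-fold that of Flox_ctrl. This ratio of group means holds on the scale of these levels and is no lower bound for single arrays. In GR iKO_DSS Ifng stood at 1.51, 0.37 and 2.87, and 1 of 4 GR iKO water arrays was above background (limma, adjusted p = 2.77e-05). Within each DSS group the arrays stood in the same order for Ifng as for Tap1 and Psmb9, but not as for all of the 10 genes. B2m, Psmb10 and Psme2 departed from this order in Flox_DSS and Tapbp in GR iKO_DSS. With 3 arrays in a group few orders are possible, and a link between Ifng and the 10 genes was not tested.

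Irf1, an interferon-induced transcription factor, rose by 0.80 ± 0.21 in Flox (adjusted p = 0.00822) and by 1.32 ± 0.21 in GR iKO (adjusted p = 0.000562). Socs1, a feedback inhibitor of interferon signalling, rose by 2.91 and 3.76, and Stat2 by 1.97 and 2.01. Ciita, the class II counterpart of Nlrc5, gave 0.45 ± 0.38 in Flox, which was not called, and rose by 1.30 ± 0.38 in GR iKO (adjusted p = 0.0166). Nlrc5 acts at promoters together with RFX and NF-Y factors, which were singled out after their values were seen. Of these, Rfxank fell by 1.00 in Flox and by 1.19 in GR iKO and Nfyc fell by 1.25 and by 0.60, Nfyb rose by 0.58 and 0.68, Nfya rose by 0.61 in Flox, and Rfx5 and Rfxap were not called. Of 5 class I-like molecules Mr1, which presents vitamin metabolites, rose by 1.41 in Flox and 0.77 in GR iKO, Fcgrt, the neonatal Fc receptor, rose by 0.67 in Flox, and Azgp1 fell by 2.01 in GR iKO.

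The genes outside the set whose profile over the 14 arrays was most like the mean of the 10 were Mocos, Lpin2, Fas, Cmpk2 and Parp9, with root-mean-square differences of 0.178 to 0.2 log2 units. Mocos stood at a mean of 1.01 in Flox_DSS and 1.32 in GR iKO_DSS, Fas at 1.23 and 1.55, and Parp9 at 0.99 and 1.70, each relative to Flox_ctrl. For comparison, the members themselves differed from their own mean by 0.188 (Psmb9) to 0.945 (Nlrc5). The 14 points share libraries and groups, and the likeness is a description.

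Markers of several cell types moved with DSS in the same arrays on the 75th-percentile scale, on which all values of this paragraph are given. Of all tested probes 21.8% were called higher and 25.4% lower in Flox, and 19.1% and 19.8% in GR iKO. Counts near these shares are no sign of a shift of a cell type. Of 5 markers of all leukocytes 1 was called higher in Flox and 5 in GR iKO, and their mean level relative to Flox_ctrl was 0.31 to 0.79 in Flox_DSS and 0.99 to 1.83 in GR iKO_DSS, against -0.43 to 0.32 on the water arrays. Of 6 neutrophil markers 5 rose in Flox and 6 in GR iKO (4.51 to 5.41 and 5.87 to 7.53), and of 8 macrophage markers 5 and 7 rose (0.79 to 1.61 and 1.23 to 2.10). Of 9 T and NK cell markers none was higher and 1 was lower in Flox (-0.44 to -0.01), and 1 was higher in GR iKO (0.35 to 0.70). Of 9 epithelial markers 1 was higher and 3 lower in Flox (-0.56 to 0.05) and 1 was higher in GR iKO (-0.00 to 0.41), and the 5 fibroblast markers rose in each (1.10 to 1.37 and 0.75 to 1.15), while 4 of 6 B and plasma cell markers were lower in Flox and 1 in GR iKO. Of 6 dendritic cell markers none was called in Flox and 2 were higher in GR iKO, of 5 endothelial markers 2 and 1 were higher, and of 5 smooth muscle markers 5 were higher in Flox and none in GR iKO. Of the 9 T and NK cell markers, Cd8a and Cd4 were well above background on 1 of 3 Flox_DSS arrays, Prf1 on 2 and the other 6 on 3, and all 9 were on 3 of 3 GR iKO_DSS arrays. On the water arrays of each genotype the 9 markers were above background on 3 or 4 of 4. Within the DSS groups these lists did not all keep the order of the 10 genes: leukocyte markers stood at 1.83, 1.12 and 0.99 in GR iKO_DSS replicates 1, 3 and 4, where the 10 genes averaged 1.49, 1.26 and 1.97. The part of these shifts in the changes of the 10 genes was not tested.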

How the data were processed

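The authors labelled 500 ng of total RNA per sample with Cy3, and spots were read by Agilent Feature Extraction, version 12.0.0.7. Scanner files as deposited hold each spot's processed intensity, and the deposited value table holds log2 values with equal quartiles on every array, so its scale is quantile-normalized. How the study tested the arrays is not given in the sources used here. The labels number replicates without naming animals, so p-values measure the spread between these samples.

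From the intensities, log2 values minus each array's 75th percentile were computed. A probe was tested if well above background on at least 3 of 14 arrays (29523 probes), and the brightest tested probe stood for its gene. The 4 group means were fitted with limma 3.58.1 (R 4.3.3) over all arrays, with array weights by treatment (1.69 water, 0.497 DSS) and Benjamini-Hochberg adjustment over all tested probes, and the fit was tested on simulated data. Ratios were compared by exact permutation tests. Probes were named by accession (GRCm38.p6). The 10 genes, the gene lists and the rule for other named genes (up to 3 called genes per list with the largest changes, plus fixed names) were chosen with earlier results of these data known. Psmd11, Stat2, Tyk2, H2-M3, Blmh, Tpp2 and the RFX and NF-Y genes were named after their values were seen. Alternatives were other weights, scalings, background corrections (normexp with offset 50, on median signals, since the files hold no mean signal), filters, blocks, probe summaries and each array left out. The number of arrays limits the precision. One gene of the interferon list is not reported here.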

Additional observations from a re-analysis of the deposited data

Results flagged for a closer look

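In 26 groups of 4 water arrays (10 genes and 3 ratios in each genotype), 1 had an array far from the others: Psmb8 over Psmb5 in GR iKO_ctrl, where replicate 1 lay at -0.46 and the others between -0.10 and -0.07, a gap of 0.928 of the group's range. Chance alone marks about 1 in 20 such groups. No other result stood out by these rules, since no interaction was called.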

How the results depend on the processing

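Scaling to the spike-in transcripts changed the most. It called 5 of the 10 genes in Flox, all lower, 1 in GR iKO and 6 interactions (85.5%, 42.5% and 28.8% of all probes), and, of 89 other pathway genes, 81 in Flox and 21 in GR iKO (27 and 37 as reported; this pathway count was added after seeing the data). In Flox the changes turned to -1.62 for B2m, -0.606 for Tap1, -1 for Tap2, -1.63 for Tapbp, -0.916 for Psmb8, -1.03 for Psmb9, -1.52 for Psmb10, -1.79 for Psme1 and -1.88 for Psme2, and in GR iKO to -0.0185 for Tapbp, -0.0757 for Psmb10, -0.0454 for Psme1 and -0.303 for Psme2. This scaling moves every gene of an array by the same amount. With normexp, the Nlrc5 difference between genotypes on DSS was -0.0797, and the cause was not tested.

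With 1 array left out, 3 to 10 genes were called in Flox and 8 to 10 in GR iKO. Without Flox_DSS replicate 1 only Tap1, Psmb8 and Psmb9 were still called in Flox, without Flox_DSS replicate 2 the calls of B2m, Tapbp, Psme1 and Nlrc5 were lost, and without GR iKO_DSS replicate 4 those of B2m and Psmb10 in GR iKO. On DSS the genotype difference ran from -0.0549 to 0.688 for Tap2 and from -0.111 to 0.312 for Psmb10, and that of Psmb10 over Psmb7 from -0.0196 to 0.403. On water the ratio differences ran from -0.33 to 0.0216 (Psmb8 over Psmb5), -0.0248 to 0.283 (Psmb9 over Psmb6) and -0.0576 to 0.146 (Psmb10 over Psmb7).

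The B2m call in Flox was also lost with normexp and when only the compared groups were fitted, and the median over probes lost the calls of Tapbp and Psme2 in Flox. With equal array weights 3903 probes were called between the genotypes on DSS, against 6, and 33 interactions, against 0, none of them for the 10 genes. With the slide as a block, and with the replicate block, 10, 10, 0, 0 and 0 of the 10 genes were called in the 5 comparisons, as without them. Same-numbered arrays correlated at -0.227 to 0.31, with 9 of 18 pairs over 0.1 and a median of 0.0992. Of the pairs with different numbers 11 of 55 were over 0.1, with a median of -0.0201. Pairs on the same slide gave 9 of 18 and other pairs 11 of 55. The main fit did not pair arrays by number, although same-numbered arrays were more often over 0.1. Requiring signal above background on all 14 arrays dropped Nlrc5. The interaction uses all arrays, so fitting only the compared groups was not run for it. Low signal limits Nlrc5, and 3 DSS arrays a group limit the genotype comparisons.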
